A study of Mus musculus with 24 samples.

Results

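The 26S proteasome is described here by the transcripts of 34 genes listed as its constitutive subunits, Psma1 to Psma7, Psmb1 to Psmb7, Psmc1 to Psmc6 and Psmd1 to Psmd14. They were taken by exact gene symbol from a table of 55487 genes with pseudogenes left out. Among them Psmd5, Psmd9 and Psmd10 encode assembly chaperones that leave the finished particle. All 34 passed the filter on low counts, as did 17139 genes in all. Bulk RNA-seq libraries had been made from brain cells that bind anti-CD11b magnetic beads, a sort that enriches microglia, the resident macrophages of the brain. The mice were males aged 8 to 10 weeks whose prenatal history was either control or maternal immune activation (MIA), an immune stimulus given to the pregnant dam. Each received saline or lipopolysaccharide (LPS, a bacterial cell wall component) at 4500 endotoxin units per gram into the abdomen, and cells were taken 18 h later from frontal cortex or striatum. Prenatal history, region and treatment gave 8 groups of 3 libraries. The third MIA striatum LPS library is marked as excluded in its title and was set aside, so that 23 libraries were compared. The labels name no strain, allele or MIA agent, and all groups underwent the same dissociation and bead sort. Litters are not given, so a difference between MIA and control offspring cannot be told apart from a difference between litters. Nothing in the labels says that the libraries of a group came from separate animals, so a p-value speaks for the spread among these libraries, which may be technical. Libraries with the same replicate number resembled each other across groups, and the main model has no term for that. Cortex and striatum libraries may come from the same animals, which the labels do not say, and effects averaged over regions and comparisons between regions treat them as independent.

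The proteasome is the chief protease of the cytosol and nucleus and degrades proteins that carry ubiquitin chains. Its 20S core is a barrel of rings of alpha subunits, which gate the entrance, and rings of beta subunits, of which Psmb5, Psmb6 and Psmb7 carry the cutting sites. The 19S regulatory particle has a base, with a ring of ATPases that unfolds substrates and pulls them into the core, and a lid, in which Psmd14 cuts the ubiquitin chain off. In immune cells interferon induces replacement catalytic subunits (Psmb8, Psmb9 and Psmb10), which form the immunoproteasome and favour peptides for MHC class I. The transcription factors NRF1 (Nfe2l1) and NRF2 (Nfe2l2) bind the antioxidant response element, and NRF1 is known for raising proteasome genes when proteasome activity is short.

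Promoter sequences from RefSeq on build GRCm38.p6 were matched to 28 of the 34 genes (250 bases before to 50 after each listed start), because most of these genes moved together after LPS. The core of the antioxidant response element, TGACNNNGC searched on both strands, was present at a listed start of 5 of the 28 genes (17.9%), against 14% of 27025 genes. Of the catalytic subunits, Psmb7 was not among the 28 genes and was not searched. The core lay 47 bases before the start of Psmb5 and 9 bases before that of Psmb6, and their last 150 bases before the start are printed 5′ to 3′ with the core in capitals.
Psmb5, chr14:54617996-54618145, minus strand: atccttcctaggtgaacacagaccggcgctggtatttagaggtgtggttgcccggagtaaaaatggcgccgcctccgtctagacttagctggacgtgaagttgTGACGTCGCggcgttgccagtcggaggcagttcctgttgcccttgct
Psmb6, chr11:70525207-70525356, plus strand: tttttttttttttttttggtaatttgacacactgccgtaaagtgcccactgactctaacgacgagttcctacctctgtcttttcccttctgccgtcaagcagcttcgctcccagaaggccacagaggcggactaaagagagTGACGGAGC

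The ETS site CCGGAAG, searched on both strands, was present at a listed start of 10 of the 28 genes (35.7%), against 9.93% of all genes. It was found at 9 of 17 genes of the 19S particle and its base chaperones (52.9%), of which the 3 chaperone genes had 0. In the 20S core it was found at 1 of 11 genes (9.09%), at the second listed start of Psma6. The CCAAT box was present in 39.3% of the members and 41.1% of all genes, and the interferon response element letters GAAANNGAA in 17.9% and 9.76%. None of the 4 motifs contains another, and a match describes letters in the window and is not evidence of binding. An ATPase, a lid subunit and a base subunit with an ETS site near the start are printed in the same way, with the site in capitals; CTTCCGG is the same site on the opposite strand.
Psmc1, chr12:100110052-100110201, plus strand: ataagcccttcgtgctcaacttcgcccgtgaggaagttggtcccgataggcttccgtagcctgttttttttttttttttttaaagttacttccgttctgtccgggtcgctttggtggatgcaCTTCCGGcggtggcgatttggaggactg
Psmd12, chr11:107479378-107479527, plus strand: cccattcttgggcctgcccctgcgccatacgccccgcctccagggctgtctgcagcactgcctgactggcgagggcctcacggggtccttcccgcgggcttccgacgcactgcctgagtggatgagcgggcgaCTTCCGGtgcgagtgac
Psmd2, chr16:20651502-20651651, plus strand: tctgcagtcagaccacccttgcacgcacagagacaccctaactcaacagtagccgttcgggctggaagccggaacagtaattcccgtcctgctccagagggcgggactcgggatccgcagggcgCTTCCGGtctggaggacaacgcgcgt

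Total counts of the 23 libraries ran from 19453295 to 29480499, and mitochondrial genes took 1.929% to 4.374%. Levels are given as CPM, counts relative to a common library total after scaling between libraries. Microglial markers were abundant in every library, with a summed level over 8 genes of 37671 to 53320 CPM after saline and 26194 to 36419 after LPS, and all 8 fell in the averaged LPS effect. Neutrophil markers (8 genes) summed to 15.4 to 754 CPM after saline and 206 to 720 after LPS, with Ly6g at 0 in 6 libraries, and monocyte markers (8 genes) to 79.3 to 304 and 259 to 709, with Vcan at 0 in 1 library. The endothelial and pericyte sum ran from 542 to 2578 CPM, the oligodendrocyte sum from 275 to 5525, the astrocyte sum from 235 to 990, the neuron sum from 26.7 to 278, the border macrophage sum from 214 to 807 and the lymphocyte sum from 0.443 to 4.93, with Cd3e at 0 in 16 libraries. In bulk samples fewer cells of a type and less RNA per cell cannot be told apart. Control striatum LPS replicate 1 stood apart with the highest sum over the 34 members (5265 CPM), MIA cortex LPS replicate 3 with the highest neuron sum (278 CPM), and MIA cortex saline replicate 1 with the highest neutrophil sum (754 CPM).

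LPS raised the transcripts of nearly the whole 26S particle. Summed over the 34 members, the level was 3233 ± 142 CPM (SD, n = 3) in control cortex after saline and 4672 ± 303 (n = 3) after LPS. In control striatum it was 3049 ± 66.1 (n = 3) and 4617 ± 565 (n = 3). In MIA offspring it went from 3126 ± 238 (n = 3) to 4232 ± 316 (n = 3) in cortex and from 3125 ± 38.2 (n = 3) to 4072 ± 105 (n = 2) in striatum. The 12 saline libraries lay between 2980 and 3401 CPM and the 11 LPS libraries between 3868 and 5265, without overlap.

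Gene by gene, with the quasi-likelihood test of edgeR and an adjusted p under 0.05 over all genes tested (hereafter called), 25 of 34 members were higher after LPS in control cortex, where 10.9% of all genes were called higher and 18.2% in either direction. In control striatum 28 of 34 were called higher, against 12.7% of all genes higher and 20.9% in either direction. In MIA cortex 15 of 34 were called higher, against 7.05% and 11.9%. In MIA striatum 9 of 34 were called higher, against 6.93% and 10.2%. With the 4 LPS effects averaged, 32 of 34 were called higher, against 20.7% and 37.6%, and no member was called lower in any of these 5 comparisons by edgeR or by DESeq2. The median log2 fold change of the members was 0.54, 0.54, 0.42 and 0.33 in the 4 comparisons in that order, beside 0.04, -0.02, 0.01 and -0.06 over all genes, and 0.47 in the average beside -0.04. For 15 members every LPS library lay above every saline library, which held for 5.78% of all genes.

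**Figure D1:**
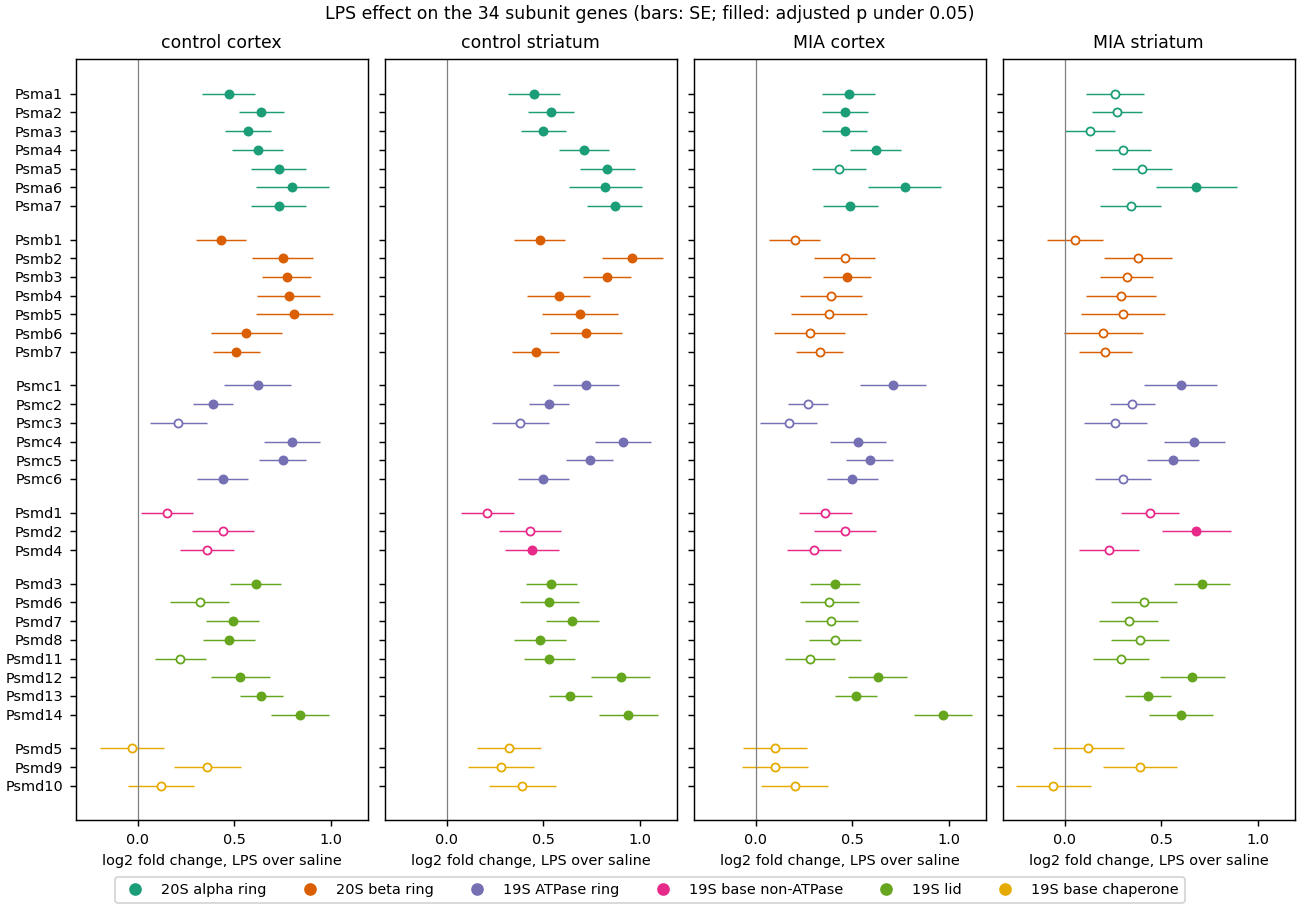
Log2 fold change of LPS over saline (horizontal axis) for each of the 34 subunit genes in 4 comparisons; bars are standard errors, filled points have an adjusted p under 0.05 and colours mark the part of the particle. The filled points number 25, 28, 15 and 9 from left to right, and the 3 chaperones have none.

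All 4 counts depended on single libraries and settings, those in MIA offspring most. In control cortex the count was 17 without LPS replicate 1, 18 with only the compared groups fitted and 19 without the filter on low counts. In MIA cortex the count fell to 8 without LPS replicate 1 and to 8 without LPS replicate 2, and was 18 without LPS replicate 3, 18 without saline replicate 1, and 4 with only the compared groups fitted. In MIA striatum leaving out LPS replicate 1 or 2 gave 3 and 1, with the lone LPS library assumed to vary like the other groups, and leaving out saline replicates 1, 2 or 3 gave 4, 4 and 5. Putting the excluded library back gave 19 in MIA striatum and 8 in MIA cortex. In control striatum the count was 25 without LPS replicate 1, 21 without the filter on low counts, and 14 when only the compared groups were fitted.

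Markers of other cell types also moved with LPS, and their part in the result was not tested. Of 8 neutrophil markers 4, 5 and 4 were called higher in control cortex, control striatum and MIA striatum. In MIA cortex edgeR called 0 higher and 2 lower (4 at an unadjusted p under 0.05; DESeq2 called 0 higher and 3 lower). Of 8 monocyte markers 4, 4, 2 and 5 were called higher in control cortex, control striatum, MIA cortex and MIA striatum. In control striatum, where the most members were called, 6 of 10 endothelial and pericyte markers, 2 of 8 oligodendrocyte markers and 2 of 10 neuron markers were called lower. There the endothelial and pericyte sum was 2036 ± 705 CPM (SD, n = 3) after saline and 938 ± 211 (n = 3) after LPS, and the oligodendrocyte sum was 3671 ± 2143 (n = 3) and 803 ± 309 (n = 3). In MIA striatum 3 of 6 border macrophage markers were called higher, with sums of 314 ± 58.5 CPM (n = 3) and 582 ± 97.6 (n = 2).

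The members called differed between the 4 comparisons. Called higher in all 4 comparisons were 8 members: Psma6, the ATPases Psmc1, Psmc4 and Psmc5, and the lid subunits Psmd3, Psmd12, Psmd13 and Psmd14. Another 7 were called in both control regions and in MIA cortex: Psma1, Psma2, Psma3, Psma4, Psma7, Psmb3 and Psmc6. Both control regions and neither MIA region called 10: Psma5, Psmb1, Psmb2, Psmb4, Psmb5, Psmb6, Psmb7, Psmc2, Psmd7 and Psmd8, of which 6 are beta subunits. Control striatum alone called Psmd4, Psmd6 and Psmd11, and MIA striatum alone called Psmd2. Psmc3, Psmd1, Psmd5, Psmd9 and Psmd10 were called in none of the 4. The share of all genes with each of these patterns was not counted, so the patterns only list members. A call in one group and not in another does not show a difference between them, and the tests of that difference are given below with the MIA comparisons.

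**Figure D2:**
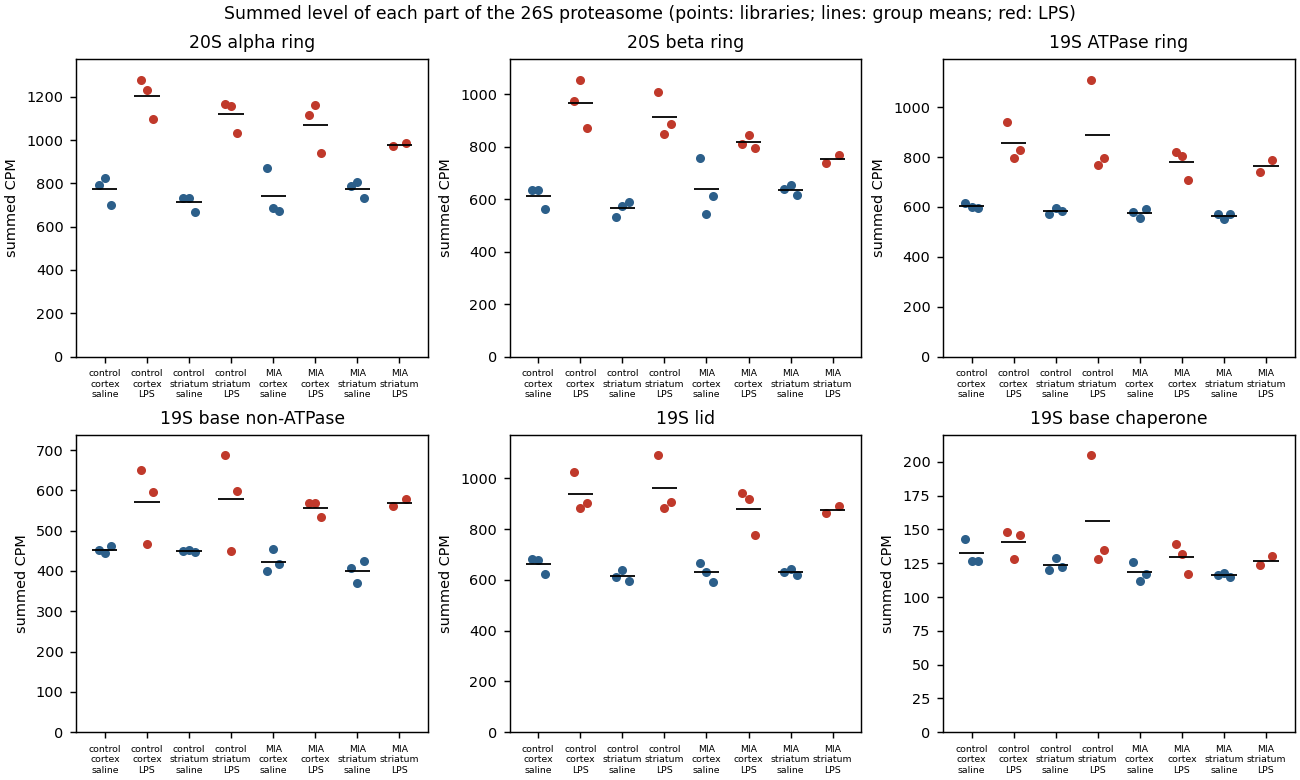
Summed CPM of the genes of each part of the particle (vertical axis, from 0) in the 8 groups; points are libraries, lines are group means, blue is saline and red is LPS. The LPS libraries lie above all saline libraries for the alpha ring (939 to 1278 against 668 to 870), the ATPase ring (707 to 1108 against 552 to 614) and the lid (778 to 1091 against 590 to 681), and overlap them for the other parts.

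The 7 alpha ring genes, which build the outer rings and the gate of the core, were called higher in control cortex and control striatum without exception, 6 of them in MIA cortex and 1 in MIA striatum. Their summed level rose from 668 to 870 CPM in saline libraries to 939 to 1278 in LPS libraries. Psma6 had the highest log2 fold change among them in the averaged effect, and Psma7 the smallest adjusted p.

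The CPM of Psma6 (ENSMUSG00000021024.14) in control cortex were 118, 125 and 99.3 after saline and 208, 213 and 175 after LPS, and in control striatum 115, 109 and 89.5 and 163, 217 and 173. Its values in MIA cortex were 137, 94.3 and 86.7 after saline and 199, 216 and 129 after LPS, and in MIA striatum 109, 118 and 105 and 183 and 171. Every LPS library was above the saline libraries of its own group pair except MIA cortex LPS replicate 3 (129), which lay below MIA cortex saline replicate 1 (137). The averaged LPS effect was a log2 fold change 0.77 (SE 0.0973, adjusted p = 2.0e-06), and the 4 separate effects were 0.80 (cortex) and 0.82 (striatum) in control mice and 0.77 and 0.68 in MIA mice.

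For Psma7 (ENSMUSG00000027566.15) the CPM values in control cortex were 100, 86.3 and 80.4 after saline and 154, 152 and 137 after LPS, and in control striatum 78.8, 83.5 and 86.3 and 184, 133 and 137. They were, in MIA cortex, 106, 73.2 and 88.1 after saline and 123, 126 and 127 after LPS, and in MIA striatum 85.4, 96.4 and 90.1 and 114 and 115. All LPS libraries (114 to 184) lay above all saline libraries (73.2 to 106). LPS raised it on average by a log2 fold change 0.61 (SE 0.0725, adjusted p = 9.4e-07). Its separate log2 fold changes were 0.73 (cortex) and 0.87 (striatum) in control mice and 0.49 and 0.34 in MIA mice, of which the last was not called (adjusted p = 0.21).

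The 7 beta ring genes, which line the chamber where proteins are cut, were all called higher in both control regions. In MIA cortex edgeR called only Psmb3 of the 7, with 4 of 7 at an unadjusted p under 0.05, and DESeq2 called 3. In MIA striatum edgeR called none (adjusted p 0.17 to 0.9, 2 of 7 at an unadjusted p under 0.05), and DESeq2 also called 0. The ring's median log2 fold change was 0.75 in control cortex, 0.69 in control striatum, and 0.38 and 0.29 in the cortex and striatum of MIA offspring. Its summed level was 611 ± 42.7 CPM (SD, n = 3) and 966 ± 91.7 (n = 3) after saline and LPS in control cortex, and 565 ± 29 (n = 3) and 914 ± 83.4 (n = 3) in control striatum. In MIA cortex it was 638 ± 110 (n = 3) and 817 ± 26 (n = 3), and in MIA striatum 636 ± 20 (n = 3) and 754 ± 22.6 (n = 2). The highest saline library, MIA cortex saline replicate 1 (758), was above the lowest LPS library, MIA striatum LPS replicate 1 (738).

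Psmb5 (ENSMUSG00000022193.7) carries the chymotrypsin-like site, which cuts after hydrophobic residues, and its CPM values in control cortex were 60.9, 70.8 and 57.5 after saline and 101, 142 and 89.8 after LPS, and in control striatum 52.2, 51.8 and 65.5 and 66, 93.7 and 115. Those in MIA cortex were 83.4, 59.8 and 61.8 after saline and 76, 86.9 and 103 after LPS, and in MIA striatum 76, 69.4 and 70.8 and 87.3 and 89.6. The groups overlapped: control striatum LPS replicate 1 had 66, within the saline range of 51.8 to 83.4, although that library had the highest sum over all members. The averaged effect was a log2 fold change 0.55 (SE 0.102, adjusted p = 2.0e-04), and the separate effects were 0.81 (cortex) and 0.69 (striatum) in control mice and 0.38 and 0.30 in MIA mice.

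Psmb6 (ENSMUSG00000018286.6), with the caspase-like site, had CPM values that in control cortex were 101, 97 and 87.5 after saline and 140, 144 and 135 after LPS, and in control striatum 69.8, 89.2 and 111 and 198, 111 and 135. Its levels in MIA cortex were 109, 77.1 and 101 after saline and 114, 110 and 123 after LPS, and in MIA striatum 95.9, 98.6 and 90.3 and 102 and 117. Its highest value, 198, was in control striatum LPS replicate 1, where Psmb5 was at its lowest among LPS libraries. On average LPS changed it by a log2 fold change 0.44 (SE 0.0945, adjusted p = 8.6e-04); separately the log2 fold changes were 0.56 (cortex) and 0.72 (striatum) in control mice and 0.28 and 0.20 in MIA mice, and the MIA ones were not called (adjusted p = 0.41 and 0.64).

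Psmb7 (ENSMUSG00000026750.6), with the trypsin-like site, showed CPM values that in control cortex were 57.7, 56.4 and 54.1 after saline and 87, 85.4 and 67.3 after LPS, and in control striatum 55, 57.8 and 50.3 and 72.3, 80.7 and 70.6. Further levels in MIA cortex were 66.1, 52.5 and 54.2 after saline and 71.9, 77.4 and 68.2 after LPS, and in MIA striatum 60.1, 60.1 and 59.7 and 68.3 and 70.8. The LPS libraries (67.3 to 87) did not overlap the saline libraries (50.3 to 66.1). This gave an averaged log2 fold change 0.38 (SE 0.0629, adjusted p = 5.7e-05), made of 0.51 (cortex) and 0.46 (striatum) in control mice and 0.33 and 0.21 in MIA mice.

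**Figure D3:**
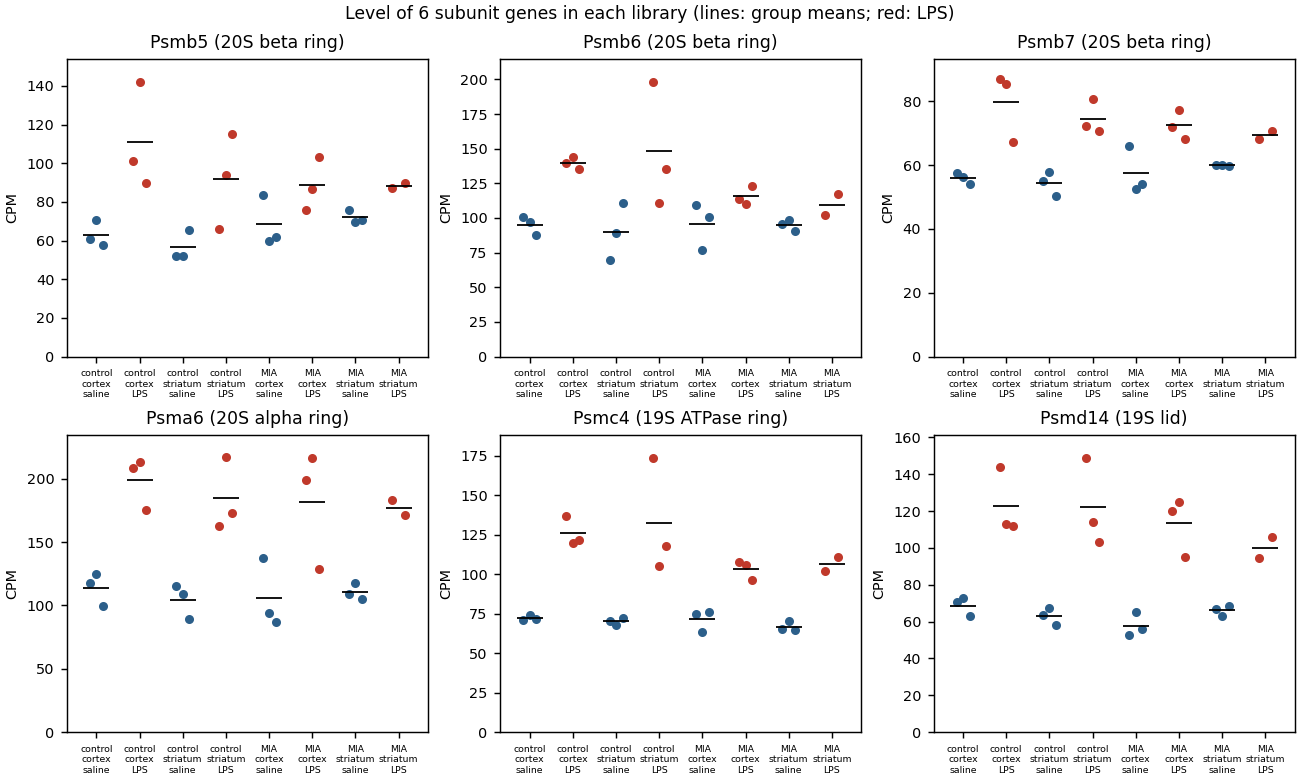
CPM (vertical axis, from 0) of the 3 catalytic beta subunits, Psma6, Psmc4 and Psmd14 in each library of the 8 groups; lines are group means, blue is saline and red is LPS. Psmb7, Psmc4 and Psmd14 have no overlap between LPS and saline libraries, whereas Psmb5, Psmb6 and Psma6 do.

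Psmb2 and Psmb3 are beta subunits without a cutting site. Psmb2 (ENSMUSG00000028837.8) had the highest averaged log2 fold change of the beta ring, and its CPM values in control cortex were 108, 102 and 92.7 after saline and 176, 163 and 172 after LPS, and in control striatum 89.2, 95.4 and 98.8 and 242, 146 and 162. Its values in MIA cortex were 121, 91.8 and 97.9 after saline and 156, 147 and 124 after LPS, and in MIA striatum 95.6, 108 and 93.9 and 123 and 135. LPS libraries (123 to 242) all lay above saline libraries (89.2 to 121), and control striatum LPS replicate 1 was the highest. Averaged over the groups, Psmb2 showed a log2 fold change 0.64 (SE 0.0812, adjusted p = 2.1e-06).

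Psmb3 (ENSMUSG00000069744.7) had the smallest adjusted p of the ring, and its CPM values in control cortex were 98.4, 97.1 and 90.3 after saline and 155, 179 and 154 after LPS, and in control striatum 76.8, 89.9 and 88.5 and 173, 136 and 143. MIA values in MIA cortex were 107, 78 and 96.1 after saline and 135, 128 and 126 after LPS, and in MIA striatum 90.6, 90.9 and 91.7 and 114 and 114. There was no overlap between LPS (114 to 179) and saline (76.8 to 107). The averaged effect was a log2 fold change 0.60 (SE 0.0639, adjusted p = 2.1e-07); the separate log2 fold changes were 0.77 (cortex) and 0.83 (striatum) in control mice and 0.47 and 0.32 in MIA mice, and the last was not called (adjusted p = 0.17). Of the remaining 2 beta genes, Psmb4 changed by 0.51 and Psmb1 by 0.29 on the log2 scale in the averaged effect, both called.

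The ATPase ring (6 genes) unfolds substrates. 5 of the 6 were called higher in control cortex, 5 in control striatum, and 4 and 3 in the cortex and striatum of MIA offspring, and the one missing from the control regions was Psmc3 (averaged log2 fold change 0.26, adjusted p = 0.01). Psmc5 (ENSMUSG00000020708.12) had the smallest adjusted p of the ring, and its CPM values in control cortex were 85.9, 89.6 and 81.9 after saline and 157, 143 and 132 after LPS, and in control striatum 83.8, 90.2 and 81.7 and 172, 132 and 122. Its MIA levels in MIA cortex were 91, 80.3 and 86.6 after saline and 128, 133 and 127 after LPS, and in MIA striatum 87.4, 78 and 79.3 and 117 and 124. LPS libraries (117 to 172) stood clear of saline libraries (78 to 91). Averaged over groups the change was a log2 fold change 0.66 (SE 0.0625, adjusted p = 4.0e-08), and by group 0.75 (cortex) and 0.74 (striatum) in control mice and 0.59 and 0.56 in MIA mice.

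Psmc4 (ENSMUSG00000030603.16) had the highest averaged log2 fold change of the ring, and its CPM values in control cortex were 71.3, 74.5 and 71.8 after saline and 137, 120 and 122 after LPS, and in control striatum 70.4, 68.1 and 72.2 and 174, 105 and 118. Those of the MIA offspring in MIA cortex were 74.7, 63.5 and 76.4 after saline and 108, 106 and 96.6 after LPS, and in MIA striatum 65.6, 70.3 and 64.7 and 102 and 111. Saline libraries were tightly placed (63.5 to 76.4) and LPS libraries began at 96.6. The averaged effect was a log2 fold change 0.73 (SE 0.0741, adjusted p = 1.0e-07), and all 4 separate effects (0.80 (cortex) and 0.91 (striatum) in control mice and 0.53 and 0.67 in MIA mice) were called. In MIA striatum the call on Psmc4 was lost without LPS replicate 2 (log2 fold change 0.55, adjusted p = 0.17), as was that on Psmc5 (0.46, adjusted p = 0.16).

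The base also holds Psmd1, Psmd2 and Psmd4, of which Psmd1 and Psmd2 are scaffolds and Psmd4 is a ubiquitin receptor. None of the 3 was called in control cortex or MIA cortex (edgeR, with 2 and 3 of them at an unadjusted p under 0.05; DESeq2 called 0 in each), Psmd4 was called in control striatum and Psmd2 in MIA striatum. The averaged effect called all 3 (log2 fold changes 0.29, 0.5 and 0.33 for Psmd1, Psmd2 and Psmd4). Psmd2 (ENSMUSG00000006998.16) had CPM values that in control cortex were 214, 200 and 223 after saline and 327, 221 and 315 after LPS, and in control striatum 214, 212 and 215 and 356, 214 and 296. Its values in MIA cortex were 174, 227 and 202 after saline and 273, 278 and 281 after LPS, and in MIA striatum 178, 159 and 187 and 276 and 283. In each control region LPS replicate 2 (221 and 214) stayed near the saline level of 200 to 223, whereas in MIA offspring all LPS libraries exceeded their saline libraries. LPS gave Psmd2 an averaged log2 fold change 0.50 (SE 0.0829, adjusted p = 5.1e-05) and the separate log2 fold changes were 0.44 (cortex) and 0.43 (striatum) in control mice and 0.46 and 0.68 in MIA mice. The MIA striatum call was lost without any 1 of LPS replicate 1 (adjusted p = 0.091), LPS replicate 2 (0.19) or saline replicate 2 (0.082).

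The lid (8 genes), which strips ubiquitin chains, was called higher for 6 genes in control cortex, 8 in control striatum, and 4 and 4 in the cortex and striatum of MIA offspring. Psmd14 (ENSMUSG00000026914.15), the deubiquitinase of the lid, had the highest averaged log2 fold change and the smallest adjusted p of all 34 members, and its CPM values in control cortex were 70.8, 72.6 and 62.8 after saline and 144, 113 and 112 after LPS, and in control striatum 63.8, 67.6 and 58.4 and 149, 114 and 103. Its values in MIA cortex were 52.5, 65 and 56.1 after saline and 120, 125 and 95.1 after LPS, and in MIA striatum 67, 63.2 and 68.6 and 94.5 and 106. The LPS libraries (94.5 to 149) lay well above the saline libraries (52.5 to 72.6). The averaged effect was a log2 fold change 0.84 (SE 0.0774, adjusted p = 2.7e-08), a 1.79-fold change, and separately 0.84 (cortex) and 0.94 (striatum) in control mice and 0.97 and 0.60 in MIA mice. The MIA striatum effect of Psmd14 lost its call without any 1 of the 5 libraries compared (adjusted p 0.059 without LPS replicate 1, 0.31 without LPS replicate 2, and 0.063, 0.068 and 0.062 without saline replicates 1, 2 and 3).

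The structural lid subunits Psmd12 (averaged log2 fold change 0.68), Psmd3 (0.57) and Psmd13 (0.56) followed, and Psmd11 was lowest of the lid (0.33), all called. In MIA striatum Psmd3 had the largest effect of all members (log2 fold change 0.71, SE 0.145, adjusted p = 0.0026). Without LPS replicate 1 it was 0.61 with an adjusted p of 0.058. Psmd12 in MIA striatum had a log2 fold change of 0.66 (adjusted p = 0.013), and its call was lost without LPS replicate 2 (adjusted p = 0.27) and without saline replicate 1 (adjusted p = 0.051).

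Psmd5, Psmd9 and Psmd10 are chaperones that help assemble the ATPase base and leave the finished particle. None was called in any single LPS comparison (edgeR and DESeq2 both called 0; the edgeR unadjusted p was 0.036 for Psmd10 in control striatum and at least 0.051 otherwise), and in the averaged effect Psmd9 alone was called. Psmd9 (ENSMUSG00000029440.15) had CPM values that in control cortex were 22.7, 25.4 and 19.7 after saline and 33.8, 26.9 and 26.1 after LPS, and in control striatum 21.4, 24.8 and 22.9 and 33.6, 23.5 and 26.9. Its values in MIA cortex were 28.9, 25.9 and 20.9 after saline and 26.6, 31.1 and 23.6 after LPS, and in MIA striatum 24.9, 23.9 and 21.5 and 28.7 and 32.7. LPS libraries (23.5 to 33.8) and saline libraries (19.7 to 28.9) overlapped broadly. The averaged effect was a log2 fold change 0.28 (SE 0.0883, adjusted p = 0.015), and without MIA striatum LPS replicate 2 it was 0.22 with an adjusted p of 0.078. The call was also lost without the filter on low counts (0.28, adjusted p = 0.057). Psmd5 and Psmd10 had averaged log2 fold changes of 0.13 (adjusted p = 0.27) and 0.16 (adjusted p = 0.16). Their group sum was 123 ± 8.42 CPM (SD, n = 12) after saline and 139 ± 23.6 (n = 11) after LPS, and control striatum LPS replicate 1 (205) was far above the other LPS libraries (117 to 148).

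Per kilobase of the longest principal transcript of each gene, a scale meant for setting genes side by side, mean levels over the 23 libraries ran from 9.98 CPM per kb for Psmd9 to 151 for Psmb3. Below Psmb3 came Psmb2 (149), Psma1 (145), Psma6 (140), Psmb6 (139) and Psma7 (122), in that order. In control cortex after saline the order of these 6 was Psma1 (132 ± 16.2 CPM per kb, SD, n = 3), Psmb3 (124 ± 5.73), Psmb6 (119 ± 8.63), Psmb2 (118 ± 9.06), Psma6 (109 ± 12.7) and Psma7 (97.3 ± 11.1), in which neighbours differed by less than the larger of their SDs. The lowest 3 were the chaperones Psmd10 (25.4), Psmd5 (15.5) and Psmd9, below the lowest lid gene, Psmd13 (37.4). In control cortex after saline they stood at 26.3 ± 2.01, 16.4 ± 1.61 and 8.7 ± 1.08 and Psmd13 at 31.4 ± 1.04, steps larger than these SDs that were not tested. The mean level of the 20S genes divided by that of the 19S genes without the 3 chaperones, both per kb, was 1.58 ± 0.132 (SD, n = 12) after saline and 1.65 ± 0.149 (n = 11) after LPS. The groups did not move alike: it went from 1.54 ± 0.0833 (n = 3) to 1.76 ± 0.214 (n = 3) in control cortex, from 1.48 ± 0.0231 (n = 3) to 1.63 ± 0.156 (n = 3) in control striatum. In MIA cortex it went from 1.62 ± 0.223 (n = 3) to 1.63 ± 0.052 (n = 3), and in MIA striatum from 1.67 ± 0.0808 (n = 3) to 1.52 ± 0.0212 (n = 2). Saline and LPS libraries overlapped in control striatum and MIA cortex and not in control cortex (1.45 to 1.61 against 1.64 to 2.01) or, in the other direction, MIA striatum (1.6 to 1.76 against 1.5 to 1.53). The ratio was not tested. Libraries were primed at the poly(A) tail, so coverage along a transcript can differ between genes and these levels are approximate. The longest principal transcript may also not be the one expressed, and the order and the ratio depend on that choice. Its length was 2911 bases for Psma2 and 2846 for Psma3, against 914 to 1239 for the other alpha ring genes.

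Across the 23 libraries the log2 CPM of member pairs had a median Pearson r of 0.80 over 561 pairs, and of 0.40 after group means were removed. The libraries share depth and composition, and these correlations are a description. Within groups Psmb5 had the lowest median r with the other members, -0.19, next to 0.03 for Psmd3 and 0.18 for Psma6. In the same libraries the 5 other genes with the pattern most like the members' mean log2 CPM were Eif5a (r = 0.981), Ranbp1 (0.978), Arhgdib (0.977), Eif3g (0.977) and Psmg1 (0.975), over 23 libraries.

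No member's level and no member's LPS response passed the threshold between MIA and control offspring. In saline libraries edgeR called 0 of 34 members between MIA and control in cortex (0% of all genes) and 0 in striatum (0%), with 0 and 0 at an unadjusted p under 0.05, and medians of -0.02 and 0.07. After LPS it called 0 in cortex (0% of all genes; 1 at an unadjusted p under 0.05) and 0 in striatum (0.146%; 8 at an unadjusted p under 0.05, all lower in MIA), with medians of -0.14 and -0.20. Of all genes, 4.88% in cortex and 9.08% in striatum had an unadjusted p under 0.05 after LPS. The cortex median was -0.07 without MIA cortex LPS replicate 3, and the striatum median -0.12 without control striatum LPS replicate 1 and -0.01 with the excluded library put back. DESeq2 called 0 in each. The lowest adjusted p of these was 0.35, for Psmb3 in striatum after LPS (log2 fold change -0.40, SE 0.14), and the largest difference was in Psmb2 (-0.50, SE 0.179, adjusted p = 0.36).

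The MIA by LPS interaction asks whether the LPS effect differs between MIA and control offspring, and a negative value is a smaller effect in MIA. Of 34 members edgeR called 0 in cortex (0% of all genes; 0 at an unadjusted p under 0.05), 0 in striatum (0%; 6 unadjusted, all negative) and 0 averaged over regions (0.0175%; 6 unadjusted, all negative), and DESeq2 called 0 in each. The share of all genes with an unadjusted p under 0.05 was 4.34% in cortex, 7.72% in striatum and 9.32% averaged. The member median was -0.10, -0.24 and -0.16 in these 3 comparisons, beside -0.02, -0.03 and -0.03 over all genes, and in the average 2 of 34 members were above 0. By part, the beta ring had medians of -0.29 in cortex and -0.43 in striatum, the alpha ring -0.11 and -0.37, the ATPase ring -0.08 and -0.18, the 8 lid genes 0.00 and -0.22, the 3 non-ATPase base genes 0.03 and 0.24, and the 3 chaperones 0.08 and -0.20. The averaged value was lowest for Psmb2 (-0.43, SE 0.163, adjusted p = 0.39), and the smallest adjusted p was that of Psmb3 (-0.40, SE 0.128, adjusted p = 0.3). With the excluded library put back, the striatum median was -0.04 in place of -0.24 and the averaged median -0.05 in place of -0.16. The cortex median was -0.03 without MIA cortex LPS replicate 3, and the averaged median -0.10 without control striatum LPS replicate 1.

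**Figure D4:**
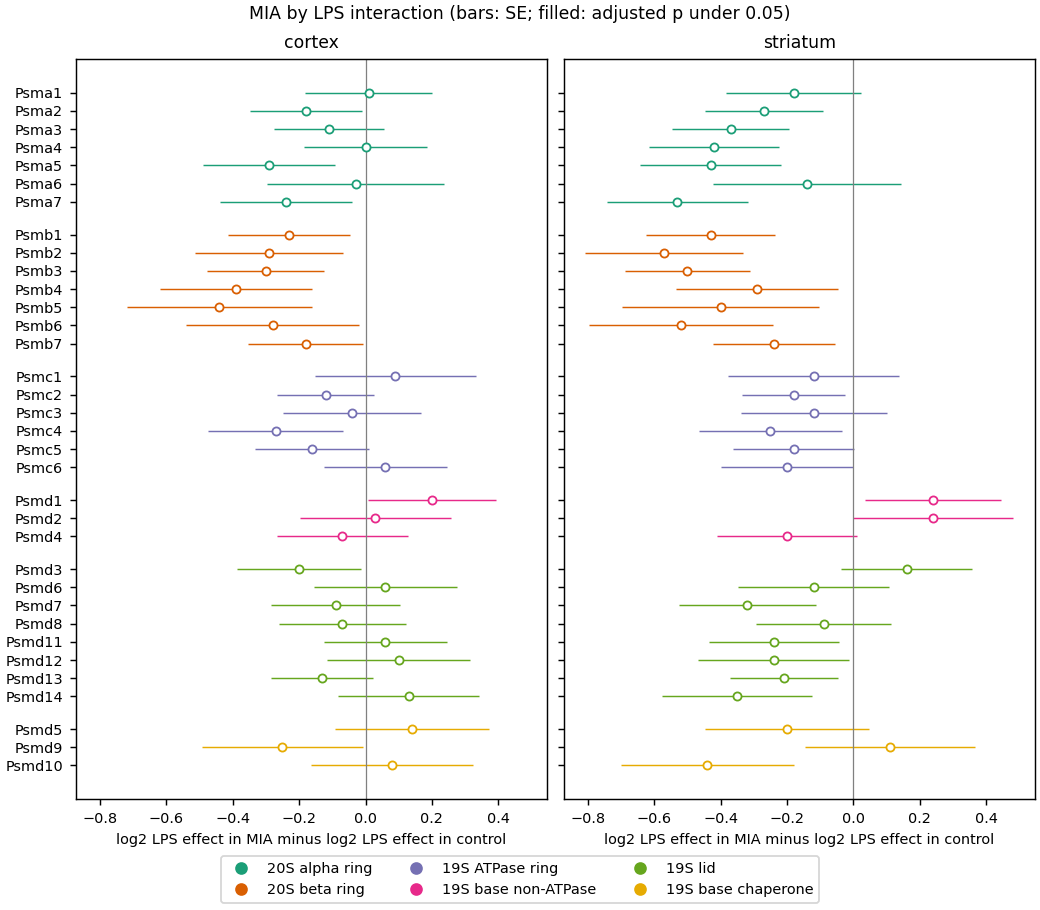
MIA by LPS interaction (horizontal axis: log2 LPS effect in MIA minus that in control) for each subunit gene in cortex and striatum; bars are standard errors and filled points would have an adjusted p under 0.05. No point is filled, all 7 beta ring genes lie below 0 in both regions, and Psmd1 and Psmd2 lie above 0 in both.

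The interferon response genes (12 genes) moved with the same contrast, and their part in the subunits' values was not tested. Their interaction median was -1.57 in cortex, -1.82 in striatum and -1.81 averaged over regions. EdgeR called 0 of 12 in each (7, 11 and 12 at an unadjusted p under 0.05), and DESeq2 called 0, 2 and 8, all lower. After LPS the MIA effect on these 12 genes was called lower by edgeR for 0 in cortex and 2 in striatum, and by DESeq2 for 2 and 12. Their summed level was 1180 to 2754 CPM in control LPS libraries, 400 to 499 in MIA LPS libraries other than MIA cortex LPS replicate 3, and 1709 in that library. MIA cortex LPS replicate 3 had a beta ring sum of 794 CPM, below the 811 and 845 of the other 2 libraries of its group, and the lowest sum over all members among LPS libraries (3868 CPM). It also stood apart from those 2 libraries in its neuron sum (278 CPM against 32.7 and 26.7) and its oligodendrocyte sum (1580 against 292 and 325). Its endothelial and pericyte sum was 1554 CPM against 782 and 816. How these differences bear on its subunit levels was not tested.

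No member was called between regions. Striatum against cortex, edgeR called 0 of 34 in control saline (0.502% of all genes; 0 at an unadjusted p under 0.05; median -0.10) and 0 in MIA saline (0.0817%; 0 unadjusted). The LPS by region interaction called 0 in control (0% of all genes; 0 unadjusted; median 0.07) and 0 in MIA (0%; 0 unadjusted; median -0.08), and DESeq2 called 0 in all 4. The largest of these values were in Psmd12 in control (0.37) and Psmd14 in MIA (-0.37), neither called. The control median was -0.02 without control striatum LPS replicate 1, and the MIA median was 0.15 with the excluded library put back, so neither direction held.

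Of 41 other genes that act with the 26S particle, listed by role from textbook knowledge, 21 were called higher and 3 lower in the averaged LPS effect. By comparison, 12 rose and 1 fell in control cortex, 13 and 1 in control striatum, and in MIA offspring 5 rose and 1 fell in cortex and 3 rose and 0 fell in striatum (12 at an unadjusted p under 0.05; DESeq2 called 4 higher and 2 lower there). The MIA by LPS interaction of these 41 genes, the test of that difference, was called by edgeR for 0 in cortex, 0 in striatum and 0 in the average over regions (7, 9 and 10 at an unadjusted p under 0.05, against 4.34%, 7.72% and 9.32% of all genes; DESeq2 called 0, 1 and 4, all lower). Among the 20S assembly chaperones 4 of 5 rose, namely Psmg4 (averaged log2 fold change 0.83), Psmg1 (0.74), Psmg2 (0.66) and Psmg3 (0.36). Pomp, which matures the beta ring, had 0.15 (adjusted p = 0.15). Of the 6 other subunits and bound enzymes of the 19S particle 4 rose, with Uchl5, a deubiquitinase, at 0.67, the ubiquitin receptor Adrm1 at 0.47 and the deubiquitinase Usp14 at 0.45. In the NRF1 axis 3 of 7 rose: Maff (0.82), Nfe2l2 (0.53) and the protease Ddi2 (0.41), which activates NRF1. Nfe2l1 itself had 0.17 (adjusted p = 0.24).

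Of 9 shuttle factors and p97 partners 4 rose, with Vcp, the p97 ATPase, at 0.32. Another 2 fell: Ubqln2 fell by 0.85 and Nub1, which targets NEDD8 to the proteasome, fell by 0.49. Among the ubiquitin and E1 genes, Rps27a, which encodes a ubiquitin fused to a ribosomal protein, rose by 0.45 and Uba1, the main ubiquitin-activating enzyme, by 0.29. None of the other activators and the inhibitor (3 genes: Psme3, Psme4 and Psmf1) was called by edgeR in the averaged effect (smallest unadjusted p 0.11; DESeq2 called 0).

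The immunoproteasome and its PA28 cap (5 genes) were called higher in full in control cortex, for 4 in control striatum, and 2 and 0 in the cortex and striatum of MIA offspring (edgeR; in MIA striatum 2 at an unadjusted p under 0.05, and DESeq2 called 0 higher and 1 lower), with log2 fold changes for Psmb8 of 0.76, 0.72, 0.16 and 0.03. Their MIA by LPS interaction was called by edgeR for 0 of 5 in each region and in the average (5 at an unadjusted p under 0.05 in each; DESeq2 called 0 in cortex, 1 in striatum and 3 in the average, all lower). The MIA effect after LPS was called for 0 in cortex (5 unadjusted; DESeq2 called 2 lower) and for 1, lower, in striatum. Averaged, Psme2 (1.01), Psme1 (0.75), Psmb10 (0.62) and Psmb8 (0.42) were called and Psmb9 (0.00, adjusted p = 1) was not. That Psmb9 average joins opposite directions, with higher mean levels after LPS in control mice and lower ones in MIA offspring. In control cortex its CPM were 49.5, 53.8 and 43.1 after saline and 75.6, 63.3 and 79.2 after LPS. In MIA striatum they were 44.1, 47.9 and 46.4 after saline and 28.1 and 32.4 after LPS. The log2 ratio of Psmb9 to the constitutive subunit it replaces, Psmb6, went from -0.97 ± 0.1 (SD, n = 3) after saline to -0.95 ± 0.21 (n = 3) after LPS in control cortex. It went from -1.08 ± 0.21 (n = 3) to -1.43 ± 0.36 (n = 3) in control striatum. In MIA offspring it went from -0.85 ± 0.13 (n = 3) to -1.48 ± 0.23 (n = 3) in cortex and from -1.04 ± 0.08 (n = 3) to -1.85 in both libraries in striatum. LPS means were thus below saline means in 3 of the 4. For Psmb8 over Psmb5 the mean log2 ratios after saline and LPS were 1.34 and 1.3 in control cortex, 1.27 and 1.3 in control striatum, 1.24 and 1.01 in MIA cortex, and 1.06 and 0.79 in MIA striatum. For Psmb10 over Psmb7 they were 0.34 and 0.68, 0.01 and 0.65, 0.27 and 0.21, and 0.09 and 0.13 in the same order. None of these ratios was tested.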

How the data were processed

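The deposited table holds 1 expected count per gene and library, and per the submitters' processing notes STAR, RSEM and DESeq2 had been used; versions, build and annotation are not given in the sources used here. Of the deposited expected counts 6.92% were not whole (tolerance 1e-06), and all were rounded. Gene identifiers matched a symbol for 55141 of 55487 genes, through a GENCODE table. RSEM shares reads among near-identical sequences, so values depend on that split.

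The model was fitted with edgeR 4.0.16 under R 4.3.3 (TMM scaling, filterByExpr with minimum count 10 and minimum total 15, quasi-likelihood F test, 1 term per group, 23 libraries, 15 residual degrees of freedom). Two-sided p-values were adjusted by Benjamini-Hochberg over 17139 genes in each of 16 comparisons, and SE follows from the F statistic. Log2 CPM used a prior count of 2. DESeq2 1.42.0, RLE scaling, no filter, only the compared groups, a replicate block, the excluded library put back and each library left out were the alternatives. The code of the fit was run on counts simulated from the model's own spread. That run cannot speak for the calls in these data, because its counts follow the model. Full values are given for the catalytic subunits and, in each part of the particle, for the members with the smallest adjusted p and the largest averaged change; in each comparison up to 6 called members with the smallest adjusted p are named. The 34 members, lists and motifs were chosen with earlier results of these data known, and some genes of the lists are not reported here. Among the 9 pairs of groups with 3 shared replicate numbers, same-numbered libraries deviated together (every r above 0.1) in 2, control cortex LPS with control striatum LPS and MIA cortex LPS with MIA cortex saline. Among the 3 pairs with 2 shared numbers they did so in 1, control striatum LPS with MIA striatum LPS. Still, 19 of 23 libraries correlated best with a library of their own number.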

Additional observations from a re-analysis of the deposited data

Results flagged for a closer look

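The library that the submitters marked as excluded, MIA striatum LPS replicate 3, lies outside the comparisons. On a scaling over 24 libraries its sum over the 34 members was 5659 CPM, above the 2995 to 5224 of the other 23 libraries, and 20 members were higher in it than in any of them. Mitochondrial genes took 6.16% of its counts, above the 1.929% to 4.374% of the others; whether this bears on the sum was not tested. The MIA striatum saline libraries reached 3177 CPM and the other MIA striatum LPS libraries 4040 on that scaling.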

How the results depend on the processing

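No member's called direction reversed under any alternative. With only the compared groups fitted, the number of members called higher after LPS was 18 in control cortex (25 in the report), 14 in control striatum (28) and 4 in MIA cortex (15). Without the filter on low counts it was 19 in control cortex, 21 in control striatum and 8 in MIA cortex. With the excluded library put back it was 20 in control cortex, 8 in MIA cortex and 19 in MIA striatum (9). The cause was not tested. Leaving out 1 library gave 17 to 27 in control cortex, 24 to 29 in control striatum, 8 to 20 in MIA cortex, 1 to 10 in MIA striatum and 30 to 32 in the average. DESeq2 gave 25, 28, 21, 10 and 32, and RLE scaling 24, 28, 16, 8 and 32. With the replicate block the counts were 25, 28, 19, 9 and 32 and 0 in every other comparison, so pairing by number changed no count by over 1.5 times. Yet 19 of 23 libraries correlated best with a library of their own number. Psme4, for example, was at 10.5 to 15.5 CPM in the compared replicate 3 libraries and at 21.6 to 48.6 in the others. The SDs and the main tests leave such shared differences in the spread, and what the numbers stand for is not given. Of 38 gene results named, 28 kept their call in every setting, and 19 of 1088 gene and setting combinations lost it. Of the member medians, 5 moved by more than the spread between replicates, all with the excluded library put back. They were the LPS effect in MIA striatum from 0.33 to 0.56, the MIA effect in striatum after LPS from -0.20 to -0.01, the MIA by LPS interaction in striatum from -0.24 to -0.04 and averaged from -0.16 to -0.05, and the LPS by region interaction in MIA from -0.08 to 0.15. MIA striatum has only 2 libraries after LPS.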
